A study of Mus musculus with 19 samples.

Results

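The genes described here are 10 mouse genes that handle iron and heme, Hmox1, Blvrb, Spic, Trf, Tfrc, Slc11a2, Slc11a1, Fth1, Ftl1 and Slc40a1, taken by name from the 36682 genes of the deposited expression table. They were measured in dorsal root ganglia, the clusters of sensory neuron cell bodies beside the spinal cord, with 1 RNA library per mouse made from the pooled L3 to L5 ganglia, in DMM mice those of the operated side. All 19 mice were male and homozygous for MaFIA, a transgene that puts an inducible Fas death receptor under the Csf1r promoter, so that the dimerizing drug AP20187 kills cells that express Csf1r, chiefly macrophages and their relatives. Osteoarthritis was induced by DMM, surgical destabilization of the medial meniscus of the knee, and AP20187 or vehicle was injected into the peritoneum daily for 5 days, at 8 weeks after surgery in the operated mice. The groups were DMM with AP20187 (5 mice, numbered 58 to 62 in the labels), DMM with vehicle (5 mice, 32, 33, 34, 63 and 64), naive with AP20187 (4 mice, 1, 3, 4 and 5) and naive with vehicle (5 mice, 1 to 5). The naive mice were age-matched and had no sham operation, so surgery as such and the joint disease cannot be told apart, and no group lacked the transgene, so effects of AP20187 itself and those through the transgene cannot be told apart either.

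Iron enters most cells bound to transferrin (Trf), which the transferrin receptor (Tfrc) takes into endosomes, from where the metal transporter DMT1 (Slc11a2) moves it to the cytosol. Spare iron is stored inside ferritin, a shell of heavy chains (Fth1), which oxidize the metal, and light chains (Ftl1), and leaves the cell through ferroportin (Slc40a1), the known cellular iron exporter. Macrophages also recover iron from red cells. Heme oxygenase 1 (Hmox1) opens the heme ring and releases iron and biliverdin. Biliverdin reductase B (Blvrb) reduces flavins and some forms of biliverdin. NRAMP1 (Slc11a1) pumps metal out of the phagosome, and Spi-C (Spic) is the transcription factor of iron-recycling macrophages of spleen and marrow.

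Several of these transcripts carry an iron-responsive element, a hairpin bound by iron regulatory proteins when iron is scarce. Bound in the 5′ UTR it blocks translation, and bound in the 3′ UTR of Tfrc it protects the message from decay, so a count of transcripts reads the second kind of control and not the first. The elements found are printed to show which members carry one and in which UTR. A search of the GENCODE M21 transcripts for the pattern CNNNNN followed at once by the loop CAGTGN, on the transcript strand, with the 5 bases before the loop pairing with those after it (G to T pairs allowed), found 1 element each in the 5′ UTRs of Fth1, Ftl1 and Slc40a1 and 4 in the 3′ UTR of Tfrc. Allowing 1 unpaired base in the stem added 1 in the 3′ UTR of Slc11a2. Capitals mark the bulged C and the 6-base loop in each 29-base window, read from the 5′ end:
Fth1, 5′ UTR: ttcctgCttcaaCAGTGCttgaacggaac
Ftl1, 5′ UTR: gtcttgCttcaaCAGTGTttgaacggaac
Slc40a1, 5′ UTR: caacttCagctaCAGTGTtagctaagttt
Tfrc, 3′ UTR, site 1: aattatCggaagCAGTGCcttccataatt
Tfrc, 3′ UTR, site 2: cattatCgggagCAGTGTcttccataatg
Tfrc, 3′ UTR, site 3: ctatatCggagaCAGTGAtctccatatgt
Tfrc, 3′ UTR, site 4: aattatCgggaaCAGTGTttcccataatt
Slc11a2, 3′ UTR: agccatCagagcCAGTGTgtttctatggt

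The Tfrc sites start 883, 1262, 1327 and 1374 bases after the stop codon and the Slc11a2 site 32 bases after it. The strict pattern was present in the 5′ UTR of 0.144% of 20899 genes and the 3′ UTR of 0.604% of 21020 genes, and with the unpaired base allowed in 0.368% and 1.67%. The other 5 members, Hmox1, Blvrb, Spic, Trf and Slc11a1, held no match in either UTR. These are matches of letters and base pairing, with no measurement of binding.

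Library totals ran from 60984830 to 74691396 counts. The lowest count of any member in any library was 37, for Spic, and 215 for any other member. Counting error was thus small beside the spread between mice for members other than Spic. For Spic, with 37 to 371 counts, it may form part of that spread. The ganglia of AP20187 mice held many more transcripts of granulocyte precursors: their 13 markers (Elane, Mpo, S100a8 and others) summed to 16932 to 29320 CPM (counts scaled by library size) in DMM with AP20187 against 405 to 7794 with vehicle, and to 8046 to 27507 against 831 to 2229 in naive mice. Of the 14 macrophage markers, 3 rose and none fell with AP20187 in DMM mice by edgeR, where 11.3% of all tested genes rose, and 6 rose and none fell in naive mice, where 8.61% rose. Their sum was 127 to 575 CPM in naive vehicle libraries and 593 to 1006 in naive AP20187 libraries, and 216 to 822 in DMM vehicle libraries and 338 to 1216 in DMM AP20187 libraries. Csf1r itself, the gene whose promoter drives the transgene, had a mean of 69.1 ± 35.9 CPM (SD, n = 5) in DMM with AP20187 and 70.0 ± 48.3 (n = 5) with vehicle. The macrophage markers Adgre1 and Cd68 had log2 differences of 0.87 and 0.90 in DMM mice, with edgeR adjusted p of 0.242 and 0.151. In naive mice Csf1r was 69.4 ± 12.9 CPM (n = 4) with AP20187 and 50.9 ± 29.4 (n = 5) with vehicle (log2 0.45, edgeR adjusted p = 0.554), Adgre1 differed by 1.22 (adjusted p = 0.149), and Cd68 rose by 1.98 (adjusted p = 0.0139). The 12 sensory neuron markers were detected in every group, at a sum of 2040 to 17703 CPM over the libraries. Naive AP20187 libraries also stood apart in skeletal muscle markers, at 1923 to 2949 CPM against at most 520 in naive with vehicle (DMM vehicle mouse 32 had 2193), and no label gives a batch, so a batch and this group cannot be told apart. Other marker lists moved with AP20187 too by edgeR. Of 8 monocyte markers, 5 rose and 1 fell in DMM mice, and 4 rose and 1 fell in naive mice. Proliferation markers rose for 12 and 11 of 12, and B lineage markers fell for 9 and 8 of 10. Of all tested genes, 12.4% fell in DMM and 2.57% in naive mice. The part of these lists in the members' values was not tested. In such bulk tissue, fewer cells of a type and less RNA per cell cannot be told apart.

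Among DMM vehicle mice, 63 and 64 stood apart from 32, 33 and 34 for all 10 members, with no overlap of the ranges. The split ran through the libraries at large: 56% of the 22778 tested genes did not overlap either. Mouse 64 was highest and mouse 63 second for 8 members, and they were the lowest 2 for Tfrc and Slc11a2. In mice 63 and 64 the granulocyte precursor markers summed to 2667 and 7794 CPM, the macrophage markers to 487 and 822 and the erythroid markers to 11725 and 26930. In mice 32 to 34 the same sums were 405 to 2034, 216 to 290 and 1612 to 6997. The part of these cell types in the members' values was not tested, and the members' DMM differences below are given against each set of vehicle mice too.

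The members spanned a wide range of abundance. By mean FPKM over the 19 libraries, which corrects for transcript length, Fth1 (616) and Ftl1 (446) ranked 48 and 61 of the 36682 genes. Trf followed at 71.6, Tfrc at 27.9, Hmox1 at 25.2 and Blvrb at 10.9 FPKM. Slc40a1 (4.02), Slc11a1 (3.64) and Slc11a2 (3.55) lay close together, and Spic was the least abundant at 0.53. Between libraries the order of variation was different. Slc40a1 differed 19.8-fold in CPM between its lowest and highest library and Trf 12.8-fold, while Slc11a2, Tfrc and Hmox1 differed 2.09-fold, 2.20-fold and 2.30-fold.

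With AP20187 the transcript of the iron exporter rose in both settings, those of the ferritin chains and transferrin rose in naive mice, and those of the heme-breakdown enzymes passed in neither. In naive mice 4 of the 10 members rose, Fth1, Ftl1, Trf and Slc40a1, and none fell. There 11.2% of the 22778 tested genes passed, 8.61% upward. Leaving out 1 mouse gave 1 to 5 members passing in naive mice. In DMM mice 2 of 10 passed, Slc40a1 upward and Slc11a2 downward. There 23.8% of genes passed, 11.3% upward and 12.4% downward, so this DMM count was not above the background. The count turned on the vehicle mice: leaving out 1 mouse gave 1 to 7 members, with 7 without vehicle mouse 64. Against vehicle mice 32 to 34 alone 8 of 10 passed, beside 36.3% of genes. Against mice 63 and 64 alone 0 passed, beside 4.73%. The median log2 difference of the members was 1.12 in naive mice, beside -0.07 over all genes, and 0.39 in DMM mice, beside -0.10. All tests are edgeR quasi-likelihood tests with Benjamini-Hochberg adjustment over the tested genes, at a threshold of 0.05.

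**Figure D1:**
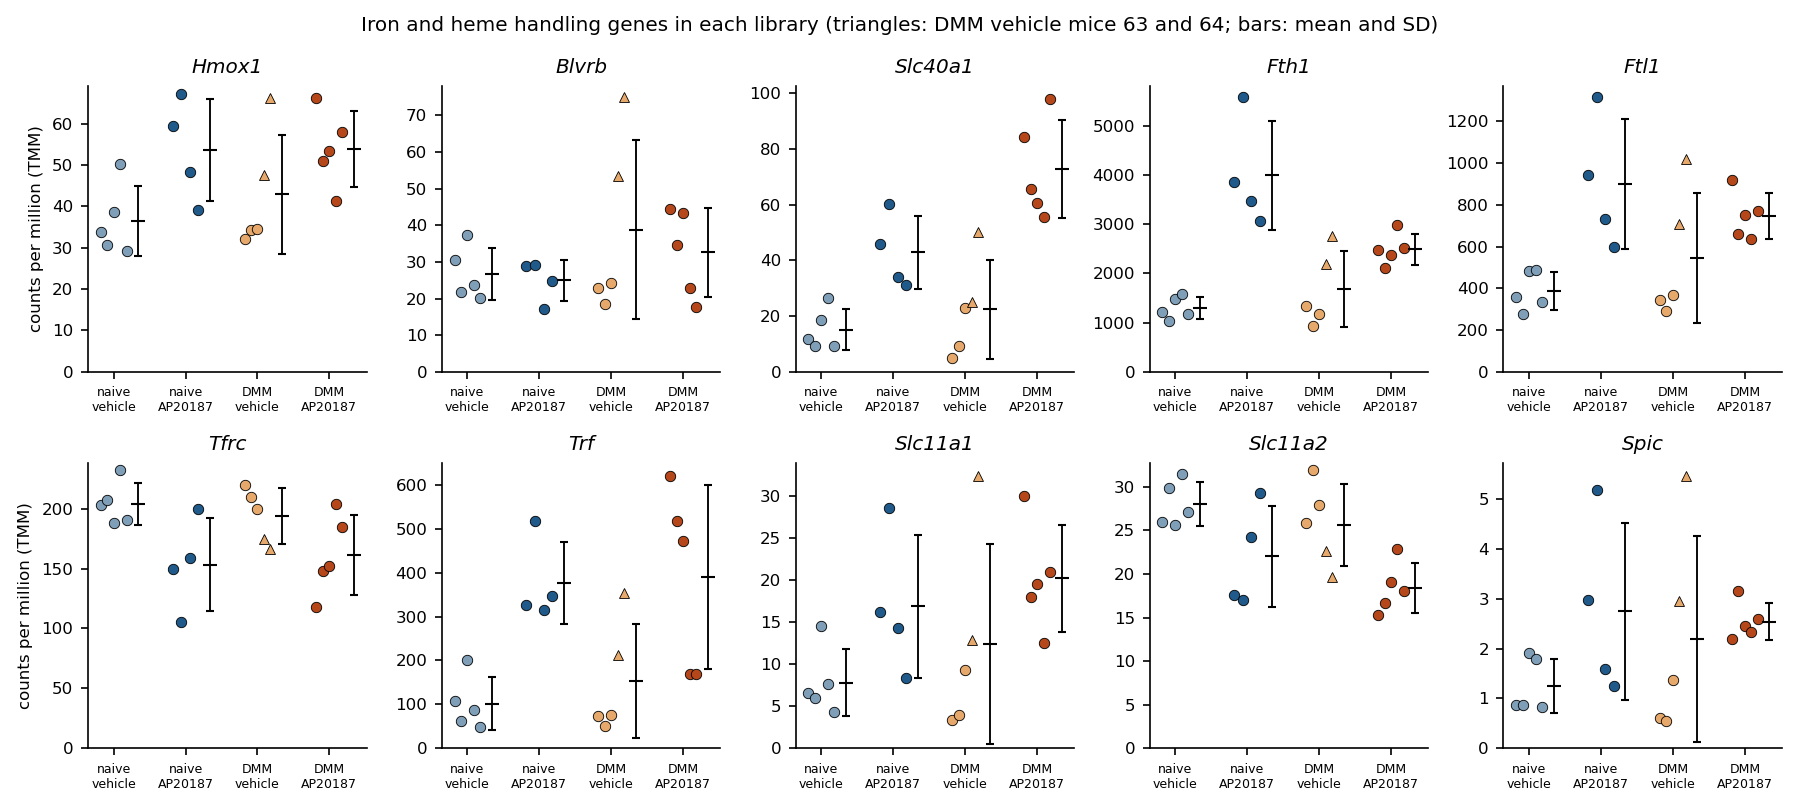
CPM of the 10 members in each library (vertical axes, linear from 0, 1 panel per gene) by group (horizontal axes). Points are mice, triangles are DMM vehicle mice 63 and 64, and bars give the group mean and SD. The 5 DMM AP20187 mice lie above all 5 DMM vehicle mice for Slc40a1, from 55.5 to 97.9 CPM, and the 4 naive AP20187 mice lie above all naive vehicle mice for Fth1, Ftl1, Trf and Slc40a1.

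**Figure D2:**
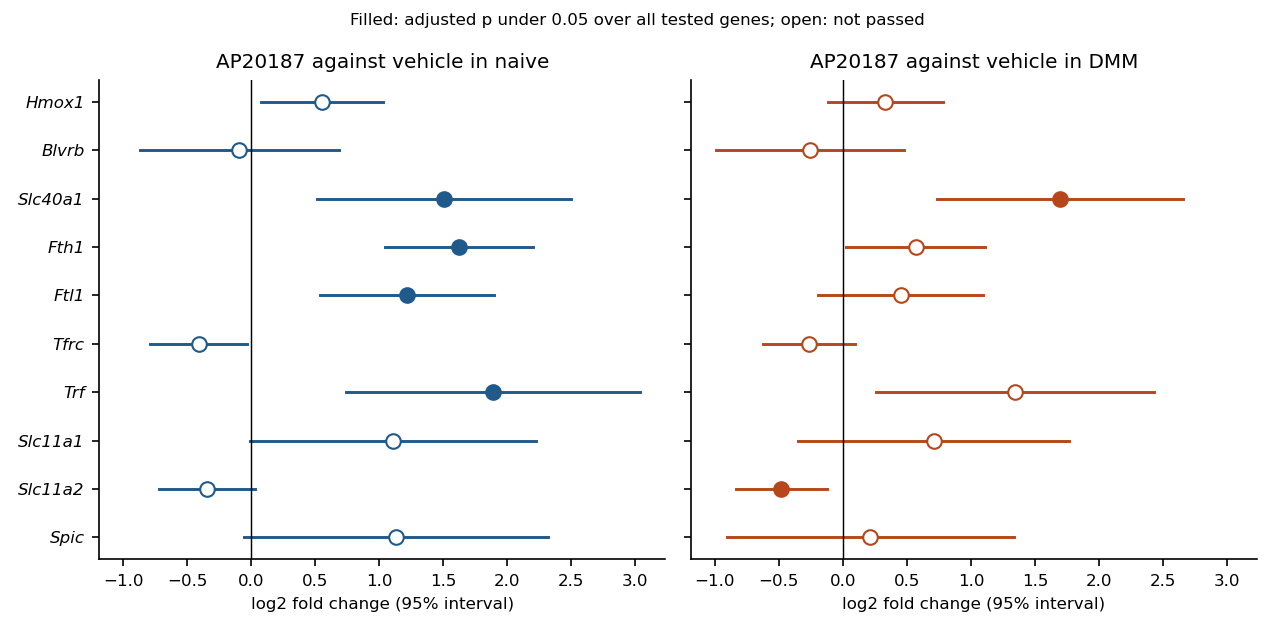
Log2 fold change of AP20187 against vehicle (horizontal axis) for each member, in naive mice on the left and DMM mice on the right, with 95% intervals. Filled points passed an adjusted p of 0.05. In naive mice 4 members are filled and all lie above 0, and in DMM mice Slc40a1 at 1.70 and Slc11a2 at -0.48 are filled.

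Export. Slc40a1 (ferroportin, ENSMUSG00000025993, GRCm39 chromosome 1, 45947228 to 45965683, minus strand) was the member that rose with AP20187 in both settings. Its levels in DMM mice with AP20187 were 84.3, 65.7, 60.8, 55.5 and 97.9 CPM for mice 58 to 62. With vehicle they were 4.93, 9.31 and 22.8 for mice 32 to 34 and 25.0 and 50.3 for mice 63 and 64. Every treated mouse was above every vehicle mouse, a separation seen in either direction for 12.9% of tested genes. The group means were 72.8 ± 17.7 CPM (SD, n = 5) and 22.5 ± 17.8 (n = 5), a 3.24-fold difference (log2 1.70, SE 0.46, edgeR adjusted p = 0.0143). Leaving out any 1 of these 10 mice kept the call, with log2 values of 1.44 to 2.23, whereas the difference was 2.56 (adjusted p = 0.00106) against vehicle mice 32 to 34 and 0.95 (adjusted p = 0.219) against mice 63 and 64.

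In naive mice Slc40a1 was 45.9, 60.2, 34.2 and 31.2 CPM with AP20187 (mice 1, 3, 4 and 5). With vehicle it was 11.7, 9.44, 18.7, 26.4 and 9.30 CPM (mice 1 to 5). Again the groups did not overlap, as for 15.5% of tested genes. The difference was 2.84-fold (log2 1.505, SE 0.48, edgeR adjusted p = 0.0477). This call was close to the threshold: it was lost without AP20187 mice 1, 3 or 4 or vehicle mice 1, 2, 3 or 5, at log2 values of 1.30 to 1.60 and adjusted p of 0.0536 to 0.149. It was also lost with no TMM scaling (log2 1.42, edgeR adjusted p = 0.0652) and with no filter on low counts (log2 1.501, adjusted p = 0.0751). The Slc40a1 responses in DMM and naive mice differed by 0.19 on the log2 scale (SE 0.65, 95% interval -1.17 to 1.56, adjusted p = 0.981), so a difference between them of either sign was not resolved. The granulocyte precursor markers of all AP20187 libraries were above those of all vehicle libraries, as given above. Macrophage marker sums did not overlap between the naive groups and did between the DMM groups, and of 8 markers of red pulp and marrow macrophages, which recycle iron, 4 rose in DMM and 3 in naive mice and none fell by edgeR, at median log2 differences of 1.21 and 1.31, where 11.3% and 8.61% of all tested genes rose. Mrc1 is in both macrophage lists. Endothelial markers rose too by edgeR, 3 of 8 in DMM and 2 of 8 in naive mice, and none fell. The part of these cell types in the Slc40a1 result was not tested. Across the 19 libraries the 3 genes whose log2 CPM followed Slc40a1 most closely were S1pr4, Tnfaip2 and Ptprc, each with r = 0.993; Ptprc encodes CD45, carried by nearly all white blood cells.

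Storage. Both ferritin chains rose in naive mice. Fth1 (ENSMUSG00000024661, GRCm39 chromosome 19, 9957962 to 9962456, plus strand) stood at 3859, 5577, 3478 and 3068 CPM in naive mice with AP20187. Naive vehicle mice had 1222, 1041, 1474, 1573 and 1178 CPM, so the lowest treated mouse was above the highest vehicle mouse. The means were 3996 ± 1103 CPM (SD, n = 4) and 1297 ± 220 (n = 5), a 3.08-fold difference (log2 1.62, SE 0.27, edgeR adjusted p = 0.00168). This call held in all 9 analyses that left out 1 mouse and in all 8 other settings tried.

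Ftl1 (ENSMUSG00000050708, GRCm39 chromosome 7, 45107368 to 45109308, minus strand) was 943, 1315, 734 and 599 CPM in naive mice with AP20187 and 358, 276, 481, 487 and 335 with vehicle. The groups did not overlap, and the difference was 2.32-fold (log2 1.21, SE 0.32, edgeR adjusted p = 0.023). It was lost without AP20187 mice 1 or 3 or vehicle mice 1 or 2, at log2 values of 0.96 to 1.19 and adjusted p of 0.057 to 0.101. Among all transcripts, Fth1 and Ftl1 together took 0.350% to 0.651% of counts in naive AP20187 libraries and 0.128% to 0.207% in naive vehicle libraries. The ratio of Fth1 to Ftl1 counts was 4.09 to 5.12 in naive AP20187 mice and 3.07 to 3.77 in naive vehicle mice, with no overlap. In DMM mice the groups overlapped, at 2.69 to 4.68 with AP20187 and 2.72 to 3.88 with vehicle. The ratio is a description and was not tested.

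In DMM mice the ferritin result depended on the vehicle mice. Fth1 was 2469, 2118, 2375, 2978 and 2525 CPM with AP20187. With vehicle it was 1333, 935 and 1172 in mice 32 to 34 and 2193 and 2769 in mice 63 and 64, which lay within the treated range. Over all 5 vehicle mice the log2 difference was 0.57 (SE 0.26, edgeR adjusted p = 0.115), against mice 32 to 34 alone 1.12 (adjusted p = 0.00173), and against mice 63 and 64 alone 0.02 (adjusted p = 0.984). Without vehicle mouse 64 it was 0.82 (adjusted p = 0.0138).

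Ftl1 showed the same split. It was 918, 659, 753, 636 and 769 CPM with AP20187, 343, 290 and 368 in vehicle mice 32 to 34, and 708 and 1020 in vehicle mice 63 and 64. Its log2 difference was 0.45 (SE 0.31, edgeR adjusted p = 0.306) over all vehicle mice, 1.16 (adjusted p = 0.00307) against mice 32 to 34 and -0.20 (adjusted p = 0.796) against mice 63 and 64. Without mouse 64 it was 0.81 (adjusted p = 0.0305).

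Fth1 was also the member with the smallest p for the difference between the DMM and naive responses. The response was 1.05 log2 units smaller in DMM mice (SE 0.38, 95% interval -1.84 to -0.27), which did not pass (edgeR adjusted p = 0.457). Under AP20187, all DMM mice were below all naive mice (log2 -0.68, SE 0.27, edgeR adjusted p = 0.221), a separation that 5.9% of tested genes had. Both ferritins have many processed copies in the mouse genome, and reads shared with such copies make their counts uncertain. The genes closest to Ftl1 across the 19 libraries were the ribosomal protein genes Rpl9, Rps16 and Rps9 (r = 0.981 to 0.982).

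**Figure D3:**
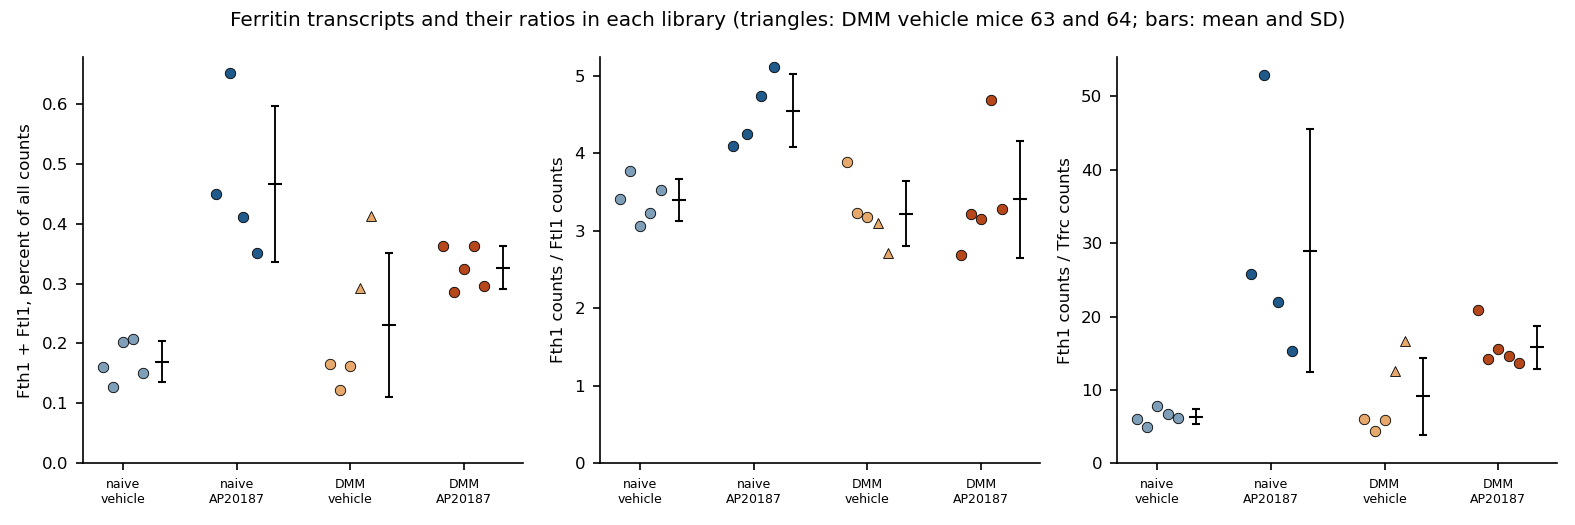
Share of all counts taken by Fth1 and Ftl1 together (left, percent), ratio of Fth1 to Ftl1 counts (middle) and ratio of Fth1 to Tfrc counts (right) in each library by group. Bars give the mean and SD, and triangles are DMM vehicle mice 63 and 64. The ratio of Fth1 to Tfrc lies between 5.01 and 7.83 in naive vehicle mice and between 15.3 and 52.9 in naive AP20187 mice.

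Uptake. Trf (transferrin, ENSMUSG00000032554, GRCm39 chromosome 9, 103081200 to 103107643, minus strand) rose in naive mice. It was 327, 517, 316 and 347 CPM with AP20187 and 108, 63.1, 201, 87.9 and 48.4 with vehicle, with no overlap. The difference was 3.70-fold (log2 1.89, SE 0.55, edgeR adjusted p = 0.033). It was lost without AP20187 mice 1 or 3 or vehicle mice 1, 2, 4 or 5, at log2 values of 1.71 to 1.95 and adjusted p of 0.0545 to 0.105, and with no filter on low counts (log2 1.88, adjusted p = 0.0522).

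Within DMM mice treated with AP20187, Trf stood at separate levels. Mice 58, 59 and 60 had 621, 518 and 473 CPM, and mice 61 and 62 had 170 and 169. The macrophage markers of the same mice summed to 1216, 1051 and 862 CPM, and to 375 and 338. These mice also split for Blvrb, at 44.6, 34.6 and 43.3 CPM against 22.8 and 17.6. Tfrc (118, 148 and 152 against 204 and 185) and Fth1 (2469, 2118 and 2375 against 2978 and 2525) split the other way. The split was therefore not particular to Trf. DMM vehicle mice had 74.6, 50.6 and 75.1 CPM of Trf (mice 32 to 34) and 213 and 354 (mice 63 and 64), so the groups overlapped. The log2 difference was 1.35 (SE 0.52) and missed the threshold (edgeR adjusted p = 0.0659). DESeq2 gave an adjusted p of 0.0205, and the edgeR value was 0.00814 without vehicle mouse 64 (log2 1.92) and 0.038 without AP20187 mouse 61 (log2 1.54). The log2 difference was 2.55 (adjusted p = 0.00183) against vehicle mice 32 to 34 alone and 0.49 (adjusted p = 0.71) against mice 63 and 64 alone. The genes that followed Trf most closely over the 19 libraries were Apod, Cbr2 and C1qa (r = 0.982 to 0.989). C1qa, a complement gene of tissue macrophages, is itself in the macrophage list. Of 10 myelinating Schwann cell markers, 4 fell in DMM mice by edgeR, where 12.4% of all tested genes fell, and none passed in naive mice. None of 8 fibroblast markers passed in either setting. The part of macrophages, glia or fibroblasts in the Trf values was not tested.

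Tfrc (transferrin receptor, ENSMUSG00000022797, GRCm39 chromosome 16, 32427738 to 32451612, plus strand) did not pass in either setting. In naive mice it was 149, 105, 159 and 200 CPM with AP20187 and 203, 208, 188, 232 and 190 with vehicle, so that only mouse 5 of the treated group lay in the vehicle range. Its log2 difference was -0.41 (SE 0.18, edgeR adjusted p = 0.142), and without AP20187 mouse 5 it was -0.58 (adjusted p = 0.0397). On log2(FPKM + 1), limma gave -0.60 (adjusted p = 0.021). In DMM mice the difference was -0.27 (SE 0.17, edgeR adjusted p = 0.278), with 118 to 204 CPM against 166 to 220. It was -0.38 (adjusted p = 0.136) against vehicle mice 32 to 34 and -0.057 (adjusted p = 0.933) against mice 63 and 64.

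Storage and uptake transcripts were also set against each other within each library, as a description with no test. The ratio of Fth1 to Tfrc counts was 5.01 to 7.83 in naive vehicle mice, 15.3 to 52.9 in naive AP20187 mice and 13.6 to 20.9 in DMM AP20187 mice. In DMM vehicle mice it spanned 4.45 to 16.7, with mice 63 and 64 highest. Sensory neuron markers summed to 2525 to 12545 CPM in naive AP20187 and 9471 to 17703 in naive vehicle mice, which overlap, and 0 of the 12 passed by edgeR (2 at an unadjusted p under 0.05). In the treated naive mouse with the lowest Tfrc, mouse 3, they were at 2525 CPM. Their part in the Tfrc values and in the ratio was not tested.

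Slc11a2 (DMT1, ENSMUSG00000023030, GRCm39 chromosome 15, 100285779 to 100321973, minus strand) was the member that fell in DMM mice. It was 15.3, 16.6, 19.05, 22.8 and 18.1 CPM with AP20187 and 25.8, 31.9, 27.9, 22.7 and 19.7 with vehicle (mice 32, 33, 34, 63 and 64). The groups overlapped through vehicle mice 63 and 64. The means were 18.4 ± 2.88 CPM (SD, n = 5) and 25.6 ± 4.73 (n = 5), and the log2 difference was -0.48 (SE 0.17, edgeR adjusted p = 0.0469). This call was fragile. It was lost without AP20187 mice 58, 59, 60 or 62 or vehicle mice 32, 33 or 34 (log2 -0.49 to -0.39, adjusted p 0.0725 to 0.133) and against vehicle mice 63 and 64 alone (log2 -0.18, adjusted p = 0.704), and was -0.64 (adjusted p = 0.0115) against mice 32 to 34. With RLE scaling its adjusted p was 0.0538. In naive mice Slc11a2 was 17.6, 17.03, 24.2 and 29.2 CPM with AP20187 and 25.6 to 31.5 with vehicle, a log2 difference of -0.35 (SE 0.18, edgeR adjusted p = 0.209); limma on log2(FPKM + 1) gave -0.43 (adjusted p = 0.0421). Sensory neuron markers were lower in DMM AP20187 libraries too, at 2040 to 8063 CPM against 5967 to 16003 in DMM vehicle. By edgeR 7 of the 12 markers fell, where 12.4% of all tested genes fell. Their part in the Slc11a2 result was not tested. The genes closest to Slc11a2 over the 19 libraries were Wdr13, Atp8b2 and Zdhhc23 (r = 0.969 to 0.972), and those closest to Tfrc were H1f11-ps, Htr4 and Aars2 (r = 0.94 to 0.971).

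Macrophage iron recycling. Slc11a1 (NRAMP1, ENSMUSG00000026177, GRCm39 chromosome 1, 74414354 to 74425211, plus strand), the phagosomal relative of Slc11a2, did not pass in either setting. It was 16.2, 28.6, 14.3 and 8.33 CPM in naive mice with AP20187 and 4.37 to 14.5 with vehicle (log2 1.11, SE 0.53, edgeR adjusted p = 0.177). In DMM mice it was 12.5 to 30.0 CPM with AP20187 and 3.32, 3.97, 9.28, 12.9 and 32.4 with vehicle, so vehicle mouse 64 was above every treated mouse. The log2 difference was 0.71 (SE 0.51, edgeR adjusted p = 0.332) over all vehicle mice, 1.46 (adjusted p = 0.0173) without mouse 64 and 1.87 (adjusted p = 0.00612) against mice 32 to 34, and -0.16 (adjusted p = 0.913) against mice 63 and 64. Its closest genes were Cd84, Unc93b1 and Dennd1c (r = 0.965 to 0.969).

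Spic (ENSMUSG00000004359, GRCm39 chromosome 10, 88510634 to 88518885, minus strand) was scarce throughout, from 0.552 to 5.46 CPM. Its highest library was DMM vehicle mouse 64 and its lowest DMM vehicle mouse 33, so the whole range over the study was seen within that group. The 5 DMM AP20187 mice were close together, at 2.18 to 3.14 CPM. The AP20187 difference was 0.21 in DMM mice (SE 0.53, edgeR adjusted p = 0.816) and 1.13 in naive mice (SE 0.57, adjusted p = 0.195). Against vehicle mice 32 to 34 alone the DMM difference was 1.59 (adjusted p = 0.0185) and against mice 63 and 64 alone -0.72 (adjusted p = 0.464). The 8 markers of red pulp and marrow macrophages, the cells in which Spic works, summed to 216 to 554 CPM in DMM AP20187 mice and 121 to 303 in DMM vehicle mice. The genes closest to Spic were Emp3, Ly6a2 and Lsp1 (r = 0.939 to 0.941).

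Heme breakdown. Hmox1 (ENSMUSG00000005413, GRCm39 chromosome 8, 75820249 to 75827217, plus strand) varied little. In naive mice it was 59.5, 67.1, 48.4 and 39.2 CPM with AP20187 and 29.2 to 50.3 with vehicle (log2 0.55, SE 0.23, edgeR adjusted p = 0.119). In DMM mice it was 41.3 to 66.3 CPM with AP20187 and 32.1, 34.2, 34.5, 47.5 and 66.1 with vehicle (log2 0.33, SE 0.22, edgeR adjusted p = 0.284). Against vehicle mice 32 to 34 the DMM difference was 0.68 (adjusted p = 0.017), against mice 63 and 64 -0.059 (adjusted p = 0.946), and without mouse 64 it was 0.54 (adjusted p = 0.0422). Its closest genes were Ppm1d, Gngt2 and Szrd1 (r = 0.95 to 0.955).

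Blvrb (ENSMUSG00000040466, GRCm39 chromosome 7, 27147403 to 27165569, plus strand) reached its highest levels in a pair of DMM vehicle mice. DMM vehicle mice 63 and 64 had 53.6 and 74.99 CPM, and mice 32 to 34 had 22.8, 18.5 and 24.3. DMM AP20187 mice had 44.6, 34.6, 43.3, 22.8 and 17.6 CPM, and the naive groups ranged from 17.3 to 37.3. The AP20187 difference was -0.25 in DMM mice (SE 0.35, edgeR adjusted p = 0.65) and -0.09 in naive mice (SE 0.37, adjusted p = 0.887). The DMM sign turned to 0.57 (adjusted p = 0.138) against vehicle mice 32 to 34, and was -0.95 (adjusted p = 0.121) against mice 63 and 64. Blvrb is abundant in red cells, and the erythroid markers, 15 of 16 of which are in the table, summed to 11725 and 26930 CPM in DMM vehicle mice 63 and 64. The second highest erythroid sum, 13486 CPM in naive vehicle mouse 4, came with 23.8 CPM of Blvrb. The part of red cells in the Blvrb values was not tested. Its closest genes were Ccdc107, Inka1 and Polr2e (r = 0.941 to 0.961).

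**Figure D4:**
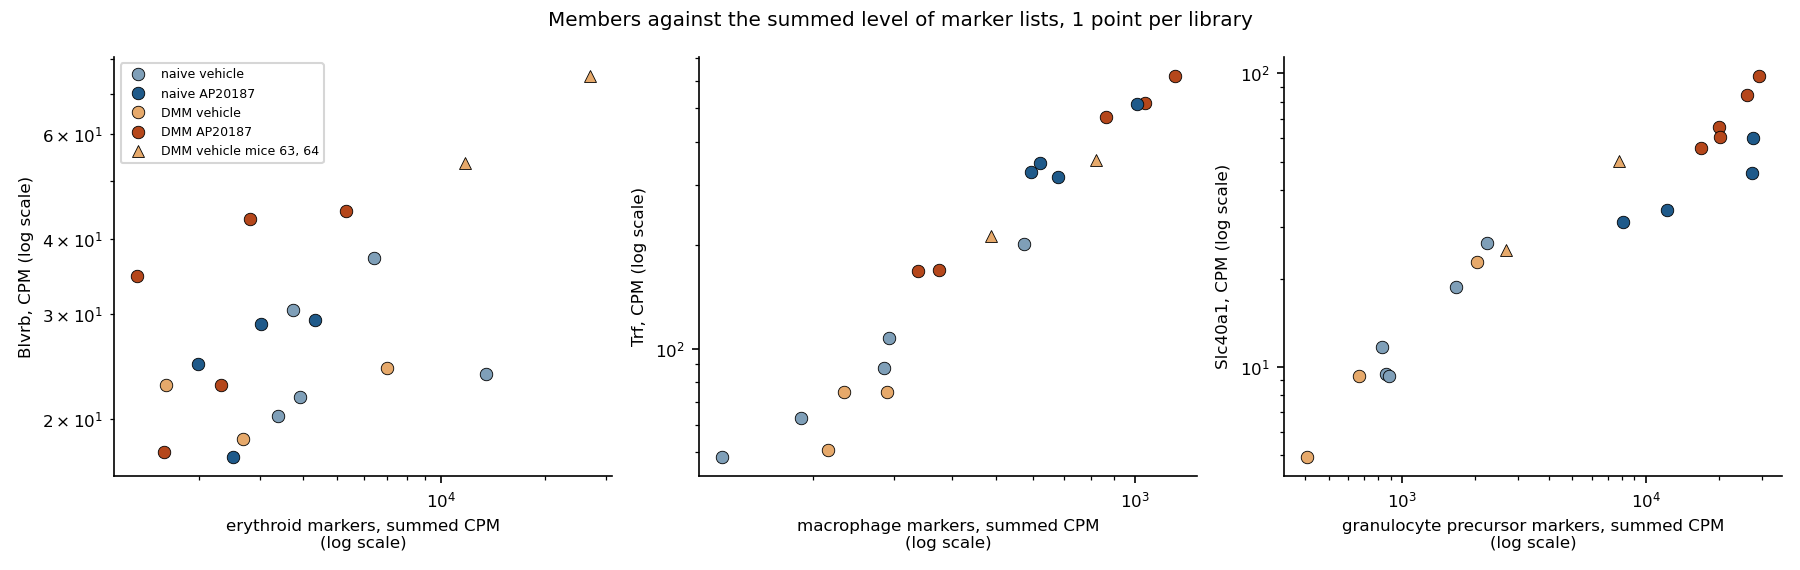
Level of Blvrb, Trf and Slc40a1 (vertical axes, CPM, log scale) against the summed CPM of erythroid, macrophage and granulocyte precursor markers (horizontal axes, log scale), 1 point per library, coloured by group. These pairs were chosen after the values were seen. DMM AP20187 mice 61 and 62 have the lowest macrophage sums of their group, 375 and 338 CPM. They also have its lowest Trf, 170 and 169 CPM, and stand apart from mice 58 to 60 for Blvrb, Tfrc and Fth1 as well.

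Without AP20187, no member passed the test between DMM and naive mice. All 10 had an edgeR adjusted p of 1, at log2 differences of -0.13 to 0.80, and 0 of 10 reached an unadjusted p under 0.05. The background was 0% of the 22778 genes, and DESeq2 also passed 0 members and 0 genes. For Fth1 the difference was 0.37 with a 95% interval of -0.17 to 0.91, and for Slc40a1 0.57 with an interval of -0.37 to 1.51. The group means hid the split among vehicle mice: against naive vehicle, mice 63 and 64 alone gave 0.96 for Fth1 and 1.19 for Ftl1 (both adjusted p = 0.0485, where 2.21% of genes passed), and mice 32 to 34 alone gave -0.18 and -0.21, with the sign of all 10 members turned. Under AP20187, 0 of 10 members passed between DMM and naive mice by edgeR, where 0.702% of genes did, and 1, Fth1, had an unadjusted p under 0.05. For the interaction of surgery and AP20187, 0 of 10 passed by edgeR where 0.114% of genes did. DESeq2 passed 0 members in both comparisons. Fth1 was again the 1 member with an unadjusted p under 0.05, and against vehicle mice 63 and 64 alone it passed (log2 -1.64, adjusted p = 0.033), where 0.368% of genes did.

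**Figure D5:**
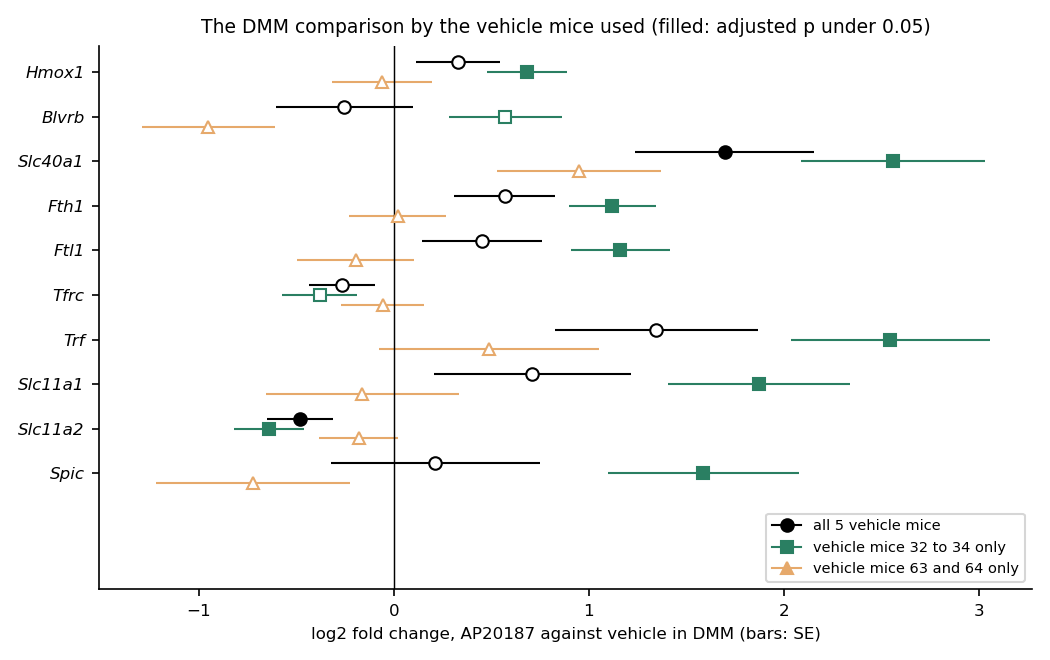
Log2 fold change of AP20187 against vehicle in DMM mice (horizontal axis, bars are SE) for each member, with all 5 vehicle mice (circles), mice 32 to 34 only (squares) and mice 63 and 64 only (triangles). Filled symbols passed an adjusted p of 0.05. With mice 32 to 34 there are 8 filled members, with all vehicle mice 2 and with mice 63 and 64 there are 0.

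The call counts followed the same split. Against DMM vehicle mice 32 to 34, 8 of 10 members passed, 7 upward and Slc11a2 downward, where 36.3% of all tested genes passed by edgeR, 17.5% upward and 18.8% downward. Against mice 63 and 64, 0 of 10 passed, where 4.73% of genes did. The labels give these mice different numbers and no batch or date.

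The wider iron and heme pathway was examined through 6 lists with 78 genes, of which 75 were tested. In DMM mice 23 of them passed with AP20187, 13 upward and 10 downward, or 30.7% beside 23.8% of all genes. In naive mice 15 passed, 10 upward and 5 downward, or 20% beside 11.2%. The list counts below are read against 11.3% of genes upward and 12.4% downward in DMM mice, and 8.61% and 2.57% in naive mice, and with lists of 10 to 15 genes several lie near them. Against DMM vehicle mice 32 to 34, 30 of the 75 passed, 21 upward and 9 downward (40% beside 36.3%), and against mice 63 and 64, 14 passed, 6 upward and 8 downward (18.7% beside 4.73%). For these lists the split by vehicle mice was added after seeing the data. In the other 3 comparisons none of the 75 passed by edgeR; 0 had an unadjusted p under 0.05 for DMM against naive with vehicle, 7 under AP20187 and 1 for the interaction.

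Heme synthesis was divided. Of its 15 genes 1 rose and 5 fell in DMM mice, and 1 rose and 2 fell in naive mice. The balance in DMM mice depended on the vehicle mice: 4 rose and 1 fell against mice 32 to 34, and 1 rose and 6 fell against mice 63 and 64. The riser was Alas1, the first and rate-limiting enzyme in most tissues, at 209 ± 62.1 CPM (SD, n = 5) with AP20187 and 37.9 ± 4.76 (n = 5) with vehicle in DMM mice (log2 2.47, SE 0.23, edgeR adjusted p = 5.53e-06). In naive mice it was 137 ± 48.5 (n = 4) and 35.5 ± 5.00 (n = 5) (log2 1.95, adjusted p = 9.05e-05). The median of the list was -0.48 in DMM and -0.22 in naive mice, beside medians over all genes of -0.10 and -0.07. Of the 15 tested erythroid markers, which share Alas2 with this list, 6 fell in DMM and 0 passed in naive mice by edgeR (1 at an unadjusted p under 0.05), with medians of -1.65 and -0.91. Their part in the heme synthesis result was not tested.

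Control of iron inside the cell had 11 tested genes, of which 2 rose and 2 fell in DMM mice and 2 rose and 1 fell in naive mice. Fbxl5, the iron-sensing ubiquitin ligase subunit that marks iron regulatory protein 2 for degradation, rose in DMM mice from 83.3 ± 16.6 to 237 ± 52.4 CPM (SD, n = 5 each; log2 1.51, SE 0.21, edgeR adjusted p = 0.000198). Of 12 NRF2 and BACH1 genes, which include the regulators of Hmox1 and the ferritins, 4 rose and 1 fell in DMM and 3 rose and 1 fell in naive mice. G6pdx, the first enzyme of the pentose phosphate pathway, rose by 3.08 log2 units in DMM (SE 0.28, edgeR adjusted p = 5.53e-06) and 2.74 in naive mice (SE 0.28, adjusted p = 2.92e-05).

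Of 15 genes of iron uptake, reduction and export, 4 rose and 1 fell in DMM and 3 rose and 1 fell in naive mice. Lcn2, a siderophore-binding protein, had a mean of 2349 ± 629 CPM (SD, n = 5) in DMM AP20187 mice and 195 ± 217 (n = 5) in DMM vehicle mice (log2 3.59, SE 0.63, edgeR adjusted p = 0.00107), and rose by 4.43 in naive mice (adjusted p = 0.00071). Ltf, the iron-binding lactoferrin of neutrophil granules, rose by 3.76 in naive mice (SE 0.65, edgeR adjusted p = 0.002). Alas1, Fbxl5, G6pdx and Lcn2 passed in DMM mice against either set of vehicle mice, at log2 values of 2.57 and 2.34, 1.71 and 1.27, 3.33 and 2.76, and 4.98 and 2.63 (mice 32 to 34 first), with adjusted p of at most 0.0227. Lcn2 and Ltf also belong to the list of granulocyte precursor markers. Heme transport and breakdown had 1 of 12 genes up and 1 down in DMM and 1 up in naive mice. Of 10 tested genes of systemic iron regulation, 1 rose in DMM and none in naive mice. These DMM counts moved with the vehicle mice too, given as up and down for mice 32 to 34 and then mice 63 and 64. They were 5 and 3, then 2 and 1, for uptake, reduction and export. NRF2 and BACH1 genes had 4 and 2, then 1 and 0. Control inside the cell had 3 and 1, then 1 and 1. Heme transport and breakdown had 3 and 1, then 1 and 0, and systemic regulation 2 and 1, then 0 and 0.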

How the data were processed

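Poly(A) RNA libraries were prepared with a stranded protocol, per the labels. Read trimming, alignment and quantification used cutadapt, HISAT2 and StringTie on GRCm39, per the submitters' processing notes; their versions and the order of steps are not given in the sources used here. The authors deposited read counts per gene for 56691 entries (6448 without a gene name) and a table of counts with FPKM for 36682 genes; counts of the 10 members were equal in both. FPKM values are the authors', scaled for length and depth.

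Counts were tested with edgeR 4.0.16 (R 4.3.3): TMM scaling, filterByExpr (minimum count 10), 1 quasi-likelihood model of the 4 groups over 19 libraries with 22778 genes and 15 residual degrees of freedom. CPM are TMM-scaled, and SE is the log2 fold change divided by the square root of F. The 95% intervals use the moderated degrees of freedom. Nothing in the labels says whether the mice came from separate litters or runs. Library totals are given with the results, and no member approached zero counts. The procedure was tested on simulated data, but the outcome is not reported here, so the calls draw no support from it. Alternatives were DESeq2 1.42.0, RLE or no TMM scaling, no filter, limma 3.58.1 on log2(FPKM + 1) and log2(FPKM + 0.1) with FPKM of at least 0.5 in 4 libraries, only the groups compared, each subset of DMM vehicle mice, a replicate block and each mouse left out.

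Members, gene lists and marker lists were chosen with earlier results of these data known. All members were named, with the 4 pathway genes of smallest p among those passing in each comparison, and for each member the 3 genes with the highest Pearson r of log2 CPM over 19 libraries among 14477 tested genes with a mean of at least 1 CPM and a standard symbol. Those of Fth1 are not reported here. These r are descriptions: the libraries share group, depth and tissue composition. Iron-responsive elements came from GENCODE M21 transcripts on GRCm38, whose coordinates are not printed. Overlapping genes on the other strand had at most 24 counts in a library, and 1 on the strand of Ftl1 at most 71.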

Additional observations from a re-analysis of the deposited data

Results flagged for a closer look

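Of 40 combinations of member and group checked for a single mouse far from the rest, 1 was found. If chance flags about 1 in 20 such groups, this is no more than chance gives. That rate was not tested here. The 40 checks are also not independent, because members moved together within groups (r = 0.944 for Blvrb and Trf). Trf in naive AP20187 mouse 3 was 516.528 CPM, and the nearest mouse of its group was at 346.551 CPM, so the gap took 0.847 of the group's range. The same mouse was the highest of its group for 8 members and had the highest macrophage marker sum of its group, 1006 CPM. Without it, the Trf difference in naive mice was 1.71 on the log2 scale (edgeR adjusted p = 0.105).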

How the results depend on the processing

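The counts of members passing by edgeR moved most with the DMM vehicle mice. Leaving out each mouse gave 1 to 7 members in DMM (7 without vehicle mouse 64) and 1 to 5 in naive mice. For AP20187 in DMM the count was 8 with vehicle mice 32 to 34 only and 0 with mice 63 and 64 only, and 1 with RLE scaling, with no filter on low counts or with only the groups compared. In naive mice it ran from 2 with no filter, where Slc40a1 and Trf were lost, to 6 with limma on FPKM, where Tfrc and Slc11a2 were added. With mice 63 and 64 only it was 2 for DMM against naive vehicle and 1 for the interaction. Over all genes DESeq2 called 7029 in DMM, 4356 in naive mice, 1109 for DMM against naive under AP20187 and 224 for the interaction, where edgeR called 5410, 2548, 160 and 26.

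With vehicle mice 32 to 34 only, signs turned for Blvrb in DMM (0.57), for all 10 members in DMM against naive vehicle (Hmox1 -0.12, Blvrb -0.29, Slc40a1 -0.29, Fth1 -0.18, Ftl1 -0.21, Tfrc 0.039, Trf -0.61, Slc11a1 -0.50, Slc11a2 0.029, Spic -0.57) and in the interaction for Hmox1 (0.13), Blvrb (0.67), Trf (0.66), Slc11a1 (0.76) and Spic (0.46). With mice 63 and 64 only they turned in DMM for Hmox1 (-0.059), Ftl1 (-0.20), Slc11a1 (-0.16) and Spic (-0.72), and in the interaction for Slc40a1 (-0.60) and Slc11a2 (0.15). With limma on log2(FPKM + 1) and log2(FPKM + 0.1) they turned for Spic in DMM against naive under AP20187 (0.061 and 0.21) and in the interaction for Blvrb (0.088 and 0.11), Slc11a1 (0.12 and 0.19) and Slc11a2 (0.036 and 0.049). None of these values had passed in the reported analysis, and the cause was not tested.

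Leaving out 1 mouse turned signs within these ranges: Blvrb in DMM (-0.43 to 0.13), in naive mice (-0.18 to 0.057) and in the interaction (-0.34 to 0.22); Spic in DMM (-0.033 to 0.89); Slc11a1 in DMM against naive vehicle (-0.087 to 1.01); under AP20187, Hmox1 (-0.13 to 0.14), Tfrc (-0.086 to 0.22), Trf (-0.18 to 0.26) and Spic (-0.37 to 0.40); in the interaction, Slc40a1 (-0.11 to 0.72), Trf (-0.95 to 0.029), Slc11a1 (-0.75 to 0.35) and Slc11a2 (-0.24 to 0.040). RLE or no TMM scaling turned no sign.

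With the replicate block in naive mice, 5 members passed, Slc11a1 being added (1.05, adjusted p = 0.0184), among 2310 genes. Same-numbered mice correlated at 0.0235, 0.301, -0.0822 and 0.183, and 2 of the 4 numbers correlated best with themselves, so the numbers were not taken to pair the mice.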
